A study of Mus musculus with 6 samples.

Results

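Lung endothelial cells given vesicles from tumour cells were compared with cells given vehicle, across all genes measured. The comparison uses 4 of the series' 6 RNA-seq libraries: the 2 labelled TEV (tumour-derived extracellular vesicles) and the 2 labelled vehicle, picked by the column names of the count table. Replicate numbers are those of the sample titles; the table's headers number the same libraries TEV_2 (replicate 1) and TEV_3 (replicate 2). Of 30055 gene symbols, the 15035 with enough counts for a test were described, and 8192 had no count in any of the 6 libraries. All cells were taken from C57BL6 mice at 3 weeks of age that lack Ch25h, the gene of cholesterol 25-hydroxylase, and were then cultured with endothelial cell growth factor and heparin. Both groups carry this deletion, so no value here compares null with wild-type cells. Vehicle cells received PBS, and TEV cells received vesicles of MC38, a mouse colorectal carcinoma line, at 20 µg/ml for 12 h. The other 2 libraries (TEV_reserpine) had 10 µM reserpine, an inhibitor of vesicular monoamine transport, for 8 h before the same vesicles. They entered the choice of genes to test, the scaling and the estimate of spread, but not the contrast. GEO's design text can be read as giving reserpine to every group; the sample labels, which name it for 1 group only, were followed. The sources do not say whether the 2 libraries of a group came from separate mice or cultures, so each p-value measures the spread between these libraries, which may be technical.

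Extracellular vesicles are membrane-bound particles that carry protein, lipid and RNA from the releasing cell and can be taken up by others; vesicles of tumour origin that reach the lung are studied for how they alter its vessels ahead of metastasis. Endothelial cells line those vessels, hold the barrier through adherens and tight junctions, set tone through nitric oxide, endothelin and prostanoids, and display adhesion molecules for leukocytes. Arterial, venous, lymphatic and capillary endothelium differ in Notch, VEGF and transcription factor genes, and the lung has 2 capillary types, the general capillary cell and the aerocyte. Ch25h makes 25-hydroxycholesterol, an oxysterol that acts on liver X receptors (LXR) and on cholesterol synthesis and restricts membrane fusion.

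Values are CPM (counts scaled to a common library size by TMM factors) and are written replicate 1 first and replicate 2 second within each group. Changes are log2 (TEV over vehicle) ± SE from edgeR's quasi-likelihood fit, with n = 2 libraries a group, and a gene is called at an adjusted p (Benjamini-Hochberg over all 15035 genes) under 0.05. Libraries held 27528493 to 81225627 estimated counts, and 3 counts were worth 0.0369 to 0.109 CPM. The deleted gene was close to background in both groups: Ch25h had 15.2 and 9.09 estimated counts with vehicle and 11.9 and 40.8 with TEV, and was not called (log2 0.39 ± 0.45, adjusted p = 0.509). The label gives the sex of the mice as female, but Y-linked transcripts, looked up after their values had been seen, were present in every library: Ddx3y stood at 27.1 and 25.5 CPM with vehicle and 42.9 and 37.8 CPM with TEV, and Eif2s3y at 19.8 and 19.6 CPM with vehicle and 26.4 and 27.1 CPM with TEV. Uty stood at 13.6 and 13.6 CPM with vehicle and 21.5 and 19.7 CPM with TEV and Kdm5d at 19.4 and 18.9 CPM with vehicle and 16.8 and 18.5 CPM with TEV. The sex on the label and these transcripts therefore disagree in all 4 libraries alike. Xist was not analysed here.

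The label of endothelium was checked against defining markers of vessel cells and of the other cells a lung isolate can hold. The 10 endothelial markers summed to 4710 and 4687 CPM with vehicle and to 12300 and 11660 CPM with TEV, and 7 of them were called higher and 2 lower. Fibroblast markers (Pdgfra, Col1a1, Col1a2, Col3a1, Dcn and Tcf21) summed to 3221 and 2789 CPM with vehicle and to 49.1 and 57.1 CPM with TEV, and all 6 were lower. All 9 pericyte and smooth muscle markers were lower, from sums of 2022 and 1999 CPM to 782 and 891 CPM, and all 4 mesothelial markers were lower, from 22.6 and 19.9 CPM to 1.06 and 1.43 CPM. Of 5 macrophage and leukocyte markers tested, 2 were lower and 1 higher, and their sum went from 31.6 and 36.8 CPM to 14.1 and 12.9 CPM. The 4 lymphatic markers, 2 of them lower, summed to 1261 and 1250 CPM with vehicle and to 1054 and 1087 CPM with TEV. Cdh1, the only lung epithelial marker tested, stood at 0.441 and 0.348 CPM with vehicle and 0.305 and 0.166 CPM with TEV and was not called. Of 3 colon epithelial markers tested (Cdh1, Vil1 and Lgals4), 0 were higher and 1 lower. Their sum was 3.065 and 2.507 CPM with vehicle and 1.499 and 1.693 CPM with TEV. Cspg4 and Msln had no count with TEV, and Lum, Sftpc, Epcam, Scgb1a1 and Cdx2 had too few counts to be tested. In bulk RNA, fewer cells of a type and less RNA per cell cannot be told apart. The stromal markers were lower in both TEV libraries, and their part in the results below was not tested.

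Vesicle treatment went with a broad change: 7476 genes were called, 49.7% of those tested, with 3773 higher (25.1%) and 3703 lower (24.6%). Counts for the gene lists below are to be read against these shares. At least 2-fold changes numbered 1346 higher and 2106 lower, and changes of 32-fold or more numbered 63 higher and 280 lower. These counts use the fitted log2, also for genes with no count in 1 group, whose fold has only a lower bound. Of the called genes, 40 had no count with vehicle and 78 none with TEV, so the counts of the largest folds are uncertain. Genes under 1 CPM were called in 28.1% of cases, and 70.3% of those calls were lower; genes at 100 CPM or more were called in 60.8%, and 30.8% of those were lower. Replicates stayed close: of 10456 genes at 5 CPM or more, 88 differed over 2-fold between the vehicle libraries and 75 between the TEV libraries, against 1773 to 2078 across groups. Genes called higher by 2-fold or more took 4.13% and 4.24% of the vehicle libraries and 14.9% and 13.3% of the TEV libraries. Genes called lower by 2-fold or more took 11.4% and 11% with vehicle and 2.26% and 2.71% with TEV. Counts of calls ran from 2668 to 3349 higher and from 2713 to 3219 lower when any library was left out, the lowest pair without vehicle replicate 1. With library size alone in place of TMM, 2968 genes were higher and 4497 lower, 39.8% against 50.5% of calls on the higher side, and the median log2 over all genes moved from 0.01 to -0.11. The plot of change against level shows both the long lower tail and the abundant genes that rose.

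**Figure D1:**
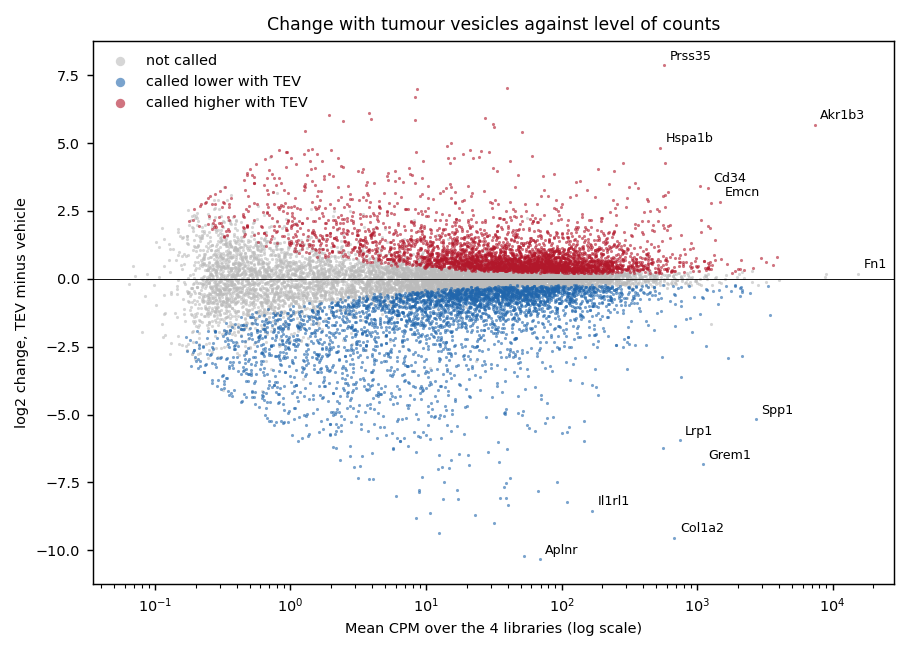
Log2 change with TEV (vertical axis) against mean CPM over the 4 libraries (horizontal axis, log scale) for each tested gene with more than 3 counts in both groups; red is called higher, blue lower and grey not called. Akr1b3 stands at the upper right, among the most abundant genes, while the largest decreases, such as Aplnr and Col1a2, reach about 10 log2 units.

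The largest gain in CPM was that of Akr1b3, aldose reductase, which turns glucose into sorbitol. It stood at 277 and 291 CPM with vehicle and 16450.0 and 12553 CPM with TEV, and became the second most counted gene with TEV (log2 5.67 ± 0.16, adjusted p = 3.40e-06). Both TEV libraries lay far above both vehicle libraries, with TEV replicate 1 the higher of the pair. Prss35, a serine protease-like gene, stood at 5.11 and 4.67 CPM with vehicle and 1279 and 1006 CPM with TEV (log2 7.86 ± 0.17, adjusted p = 2.18e-06). Grik1, a kainate-type glutamate receptor subunit, had no count with vehicle and 17.5 and 20.8 CPM with TEV, at least 473-fold higher, taking 3 counts as the floor for an empty group. The unnamed locus 2310030G06Rik showed the same pattern, at 23.9 and 13.6 CPM with TEV and at least 403-fold higher. Gper1, a membrane receptor for oestrogen, held 0.395 and 0.870 CPM with vehicle and 123 and 34.3 CPM with TEV, and its TEV libraries differed over 3-fold from each other although both lay above vehicle (log2 7.03 ± 0.77, adjusted p = 0.000491). Slc1a3, a glutamate and aspartate transporter, rose from 2.16 and 2.54 to 112 and 88.6 CPM (log2 5.42 ± 0.19, adjusted p = 7.38e-06). Enpp2, the gene of autotaxin that makes lysophosphatidic acid, rose from 0.999 and 1.43 to 66.8 and 56.5 CPM (log2 5.69 ± 0.20, adjusted p = 7.38e-06). Tlr13, a receptor for bacterial ribosomal RNA, rose from 1.44 and 1.08 to 71.9 and 51.6 CPM (log2 5.59 ± 0.24, adjusted p = 1.35e-05). In each of these 3 genes the groups were far apart and the replicates close. Tslp, an epithelial cytokine, had 1.56 and 0 CPM with vehicle and 72.2 and 35.7 CPM with TEV, and Tal2, a relative of the haematopoietic factor Tal1, had 0.116 and 0.209 CPM with vehicle and 24.0 and 8.71 CPM with TEV.

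The other large increases included Pkd1l1 (5.86 ± 0.52), a polycystin channel subunit, Foxq1 (4.75 ± 0.33), a forkhead factor, Popdc2 (4.68 ± 0.22), Cts7 (4.66 ± 0.54), Hspa1b (4.82 ± 0.32), and the gene models Gm18852 (4.70 ± 0.44) and Gm20481 (4.60 ± 0.42). Another 3 rested on few vehicle counts and lost their call when a library was left out. Eci1, a mitochondrial enoyl-CoA isomerase, had 0 and 0.313 CPM with vehicle and 19.7 and 14.0 CPM with TEV (log2 6.98 ± 1.67) and an adjusted p of 0.0605 without vehicle replicate 1. Rarb, a retinoic acid receptor, had 1.65 and 0 CPM with vehicle and 45.8 and 13.4 CPM with TEV, with an adjusted p of 0.0878 without TEV replicate 1. Ndst2, a heparan sulfate sulfotransferase, had 0 and 2.05 CPM with vehicle and 28.8 and 25.8 CPM with TEV, with an adjusted p of 0.0533 without TEV replicate 1. In gain of CPM rather than fold, the leading genes after Akr1b3 were Emcn, Hspa8, Cd34, Angpt2, Plat, Gapdh, Odc1, Eng, Pkm, Tinagl1, Tnc, Pecam1, Plvap and Prss35. Tinagl1, a matricellular protein of basement membranes, rose from 416 and 369 to 1713 and 1776 CPM (log2 2.15 ± 0.10, adjusted p = 2.10e-05).

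Among the 20 largest decreases of called genes with a mean of 5 CPM or more, Aplnr, the apelin receptor of capillary and venous endothelium, fell from 143 and 133 to 0.139 and 0.0891 CPM (log2 -10.32 ± 0.20, adjusted p = 2.18e-06), and Mgp, matrix Gla protein, an inhibitor of calcification, fell from 119 and 93.6 to 0.0555 and 0.102 CPM (log2 -10.21 ± 0.25, adjusted p = 2.18e-06). Both genes were left near the level of 3 counts with TEV. Cspg4, the NG2 proteoglycan of pericytes, had 17.1 and 15.3 CPM with vehicle and no count with TEV, at least 625-fold lower. Slc26a7, an anion exchanger, had 2 counts left over the TEV libraries, a ratio of 1099.7 (95% interval 304 to 9089.8) from counting error alone. Il1rl1, the IL-33 receptor ST2, fell from 261 and 411 to 0.666 and 1.03 CPM, and its ligand Il33 from 4.53 and 3.13 to 0.0555 and 0.115 CPM. Fmo2 (-8.71 ± 0.25), a flavin monooxygenase of lung, Kctd15 (-8.63 ± 0.58), Hsd3b6 (-8.10 ± 0.31), a steroid dehydrogenase, and Lingo2 (-7.84 ± 0.53) fell too. The pseudogene Pgam1-ps2 went from 22.4 and 5.81 CPM to no count, and reads of its parent gene could have been shared with it by the authors' counting. By CPM lost, the order was Spp1, Fbln2, Thbs1, Bgn, Grem1, Timp2, Lrp1, Col1a2, Apobec3, Col1a1, Col5a2, Ctsb, Col18a1, Myh9 and Flna. Spp1, osteopontin, fell from 5128 and 5391 to 156 and 135 CPM (log2 -5.17 ± 0.10, adjusted p = 2.18e-06), and Apobec3, a cytidine deaminase that restricts retroviruses, from 1399 and 1437 to 110.4 and 119.7 CPM (log2 -3.62 ± 0.08, adjusted p = 2.18e-06). Myh9, non-muscle myosin heavy chain, fell by less, from 2656 and 2388 to 1562 and 1734 CPM.

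The most counted genes, ranked by counts and not by length, were partly the same in both groups, with 9 of the top 15 and 68 of the top 100 shared. By the group mean, Fn1, fibronectin, led both with 14792 and 14035 CPM with vehicle and 15675 and 17047 CPM with TEV and was not called (log2 0.18 ± 0.07, adjusted p = 0.0729), though it was called without TEV replicate 1 (adjusted p = 0.0428). With vehicle, the following genes were Eef1a1, mt-Co1, Spp1, Thbs1, Vim, Fbln2, Eef2, Actg1, mt-Cytb, Bgn, Tnc, Flna, Hspa8 and Actb. With TEV they were Akr1b3, mt-Co1, Eef1a1, Hspa8, Tnc, Vim, Pkm, Gapdh, Actg1, Eef2, Hsp90ab1, Hspg2, Ptgs2 and mt-Cytb. Of these, Eef1a1, mt-Co1, Vim, Actg1, Actb, mt-Cytb and Hspg2 were not called, with log2 values between -0.21 and 0.29. Eef2, elongation factor 2, was called lower (-0.26 ± 0.07) and lost that call without either vehicle library or TEV replicate 1 (adjusted p = 0.0625, 0.0792 and 0.0955).

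Genes that mark endothelium in general rose more often than they fell: of 37 tested, 19 rose, 10 fell and 8 were not called, with a median log2 of 0.35. Cd34, a sialomucin of capillary endothelium, stood at 206 and 222 CPM with vehicle and 2341 and 2018 CPM with TEV (log2 3.35 ± 0.10, adjusted p = 3.75e-06). Emcn, endomucin, which keeps leukocytes off venous and capillary walls, stood at 356 and 365 CPM with vehicle and 2680.1 and 2484 CPM with TEV (log2 2.84 ± 0.07, adjusted p = 2.97e-06). Both TEV libraries lay over 5-fold above both vehicle libraries for each gene. Eng, endoglin, a co-receptor for BMP9, rose from 496 and 486 to 1936 and 1882 CPM, and Plvap, which forms the diaphragms of fenestrae and caveolae, from 496 and 497 to 1668 and 1601 CPM. Ptprb, the phosphatase VE-PTP that restrains Tie2, rose from 243 and 214 to 970.4 and 822 CPM, and Pecam1, the junctional adhesion molecule CD31, from 735 and 747 to 2028 and 1927 CPM. The transcription factors Erg (1.26 ± 0.14) and Tal1 (1.10 ± 0.10), the sphingosine-1-phosphate receptor S1pr1 (0.81 ± 0.10), the junction genes Esam (0.65 ± 0.08) and Ecscr (1.12 ± 0.08), and Cdh5, VE-cadherin (0.37 ± 0.06), also rose. The 10 members that fell included defining genes of the lineage. Kdr, the main VEGF receptor, fell from 343 and 306 to 65.3 and 105 CPM (log2 -1.92 ± 0.21, adjusted p = 0.000494). Cldn5, the tight junction claudin of endothelium, fell from 221 and 219.9 to 20.2 and 37.3 CPM (log2 -2.93 ± 0.27, adjusted p = 0.000256). Vwf, von Willebrand factor, fell from 51.3 and 43.4 to 5.77 and 5.88 CPM (log2 -3.02 ± 0.16, adjusted p = 2.82e-05), and Gpihbp1, which holds lipoprotein lipase on capillaries, from 16.5 and 14.9 to 0.777 and 1.17 CPM (log2 -3.97 ± 0.23, adjusted p = 4.26e-05). The groups did not overlap for any of these 4 genes, as for 78.9% of all genes tested. Ramp2 (-1.67 ± 0.16), an adrenomedullin co-receptor, Sox17 (-1.59 ± 0.26), an arterial factor, and Clec14a (-1.87 ± 0.26) fell too.

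Most called genes of the vessel subtypes fell. Of 17 arterial genes, 0 rose, 15 fell and 2 were not called, with a median log2 of -1.59, and of 19 Notch pathway genes, 0 rose, 16 fell and 3 were not called, with a median log2 of -1.53. Dll4, the Notch ligand of arteries and tip cells, fell from 90.0 and 85.3 to 12.3 and 16.3 CPM (log2 -2.61 ± 0.15, adjusted p = 4.08e-05), and its relative Dll1 from 14.4 and 13.5 to 0.972 and 1.99 CPM. Jag1 fell from 182 and 204 to 64.8 and 93.3 CPM. The receptors Notch1 (-0.61 ± 0.13), Notch2 (-2.56 ± 0.10) and Notch3 (-2.32 ± 0.26) fell. Rbpj, the factor through which all Notch receptors act on DNA, fell from 287 and 285 to 67.7 and 67.1 CPM (log2 -2.09 ± 0.07, adjusted p = 7.38e-06). The target genes Hey1 (from 7.62 and 6.89 to 1.19 and 1.15 CPM), Hes1 (from 34.1 and 29.7 to 18.2 and 20.4 CPM) and Heyl (log2 -5.86 ± 0.88) fell with it, as did the fringe glycosyltransferases Lfng (-1.88 ± 0.31) and Mfng (-1.19 ± 0.09). In all of these the TEV libraries lay below the vehicle libraries; the groups did not overlap for 78.9% of all genes tested. Among other arterial genes, Efnb2 (-1.17 ± 0.13), Unc5b (-1.79 ± 0.07), Gja5 (-4.01 ± 0.36), a connexin, and Sema3g (-4.27 ± 0.27) fell. The plot of vessel and stromal genes by library shows Dll4, Rbpj and Hey1 down beside Cd34 and Emcn up.

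**Figure D2:**
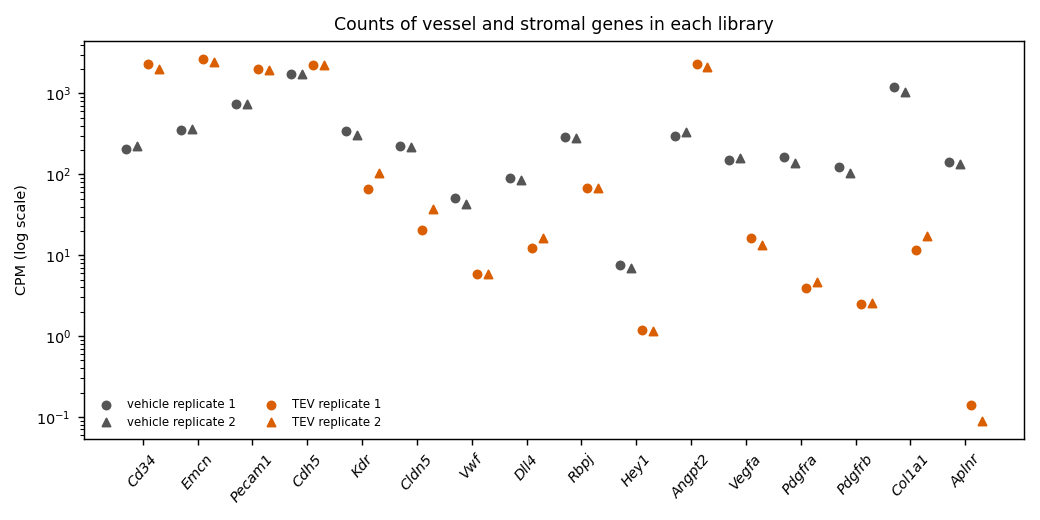
CPM on a log axis for 16 genes in each of the 4 libraries: grey vehicle, orange TEV, circles replicate 1 and triangles replicate 2. Cd34, Emcn, Pecam1, Cdh5 and Angpt2 are higher and Kdr, Cldn5, Vwf, Dll4, Rbpj, Hey1, Vegfa, Pdgfra, Pdgfrb, Col1a1 and Aplnr lower with TEV, and replicates lie close together.

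Most called genes of both lung capillary types fell. Of 12 general capillary genes, 1 rose, 9 fell and 2 were not called, with a median log2 of -1.07. The riser was Ptprb, and Kit, the stem cell factor receptor that marks these cells, fell from 76.8 and 83.3 to 9.36 and 12.6 CPM (log2 -2.85 ± 0.15, adjusted p = 2.70e-05). Sema3c, a secreted semaphorin, fell from 70.9 and 100.5 to 9.88 and 12.9 CPM. Of 12 aerocyte genes, 2 rose, 7 fell and 3 were not called, with a median log2 of -1.37. Emp2, a tetraspan membrane protein, fell from 151 and 149 to 6.11 and 6.33 CPM (log2 -4.59 ± 0.09, adjusted p = 2.18e-06), and Fibin from 27.1 and 25 to 0.111 and 0.267 CPM. Cyp4b1, a lung cytochrome, fell from 21.4 and 20.4 to 0.611 and 1.07 CPM, and Tspan13 from 26.1 and 24.5 to 3.47 and 4.02 CPM. These 4 genes were lower in both TEV libraries by over 6-fold. The 2 aerocyte genes that rose were Pmp22, from 30.0 and 28.3 to 583 and 342 CPM, and Apln, the ligand of the receptor Aplnr, from 174 and 188 to 437 and 759.5 CPM. Of 10 venous genes, 3 rose, 6 fell and 1 was not called, with a median log2 of -0.63. Selp, P-selectin, rose from 111 and 185 to 504 and 658 CPM, Ephb4, the receptor for Efnb2, from 233 and 228 to 381 and 442 CPM, and Bst1 by 1.01 ± 0.16, while Nrp2 fell (-0.58 ± 0.07). Of 10 lymphatic genes, 2 rose, 5 fell and 3 were not called, with a median log2 of -0.39, with 3 lower without vehicle replicate 1. Nts, neurotensin, rose from 0.697 and 1.04 to 6.25 and 6.51 CPM and Thy1 from 99.0 and 90.7 to 286 and 333 CPM, while Reln (-1.40 ± 0.14) and Mmrn1 (-1.66 ± 0.08) fell.

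Genes of sprouting moved both ways: of 24 tip cell genes, 6 rose, 12 fell and 6 were not called, with a median log2 of -0.36. The 6 that rose were near the share over all genes tested, of which 25.1% were higher and 24.6% lower. Esm1, endocan, a proteoglycan of sprouting tips, stood at 28.1 and 28.0 CPM with vehicle and 502 and 581 CPM with TEV (log2 4.27 ± 0.10, adjusted p = 2.18e-06), and Angpt2, an angiopoietin that can oppose Tie2 signalling, at 298 and 333 CPM with vehicle and 2309 and 2109 CPM with TEV (log2 2.81 ± 0.09, adjusted p = 4.93e-06). Adm, adrenomedullin, rose from 92.5 and 108 to 158 and 222 CPM. TEV lay above vehicle in every pair of libraries for these 3, and the groups lay apart for 78.9% of all genes tested. Of 19 genes of the VEGF and angiopoietin system, 4 rose, 12 fell and 3 were not called, with a median log2 of -0.82, and 2 rose and 10 fell without vehicle replicate 1. Vegfa fell from 151 and 161 to 16.2 and 13.4 CPM (log2 -3.41 ± 0.13, adjusted p = 9.82e-06), and Vegfc (-1.95 ± 0.26), Nrp1 (-0.82 ± 0.12), Angptl2 (-3.42 ± 0.17) and Angptl4 (-2.07 ± 0.36) fell as well. Ligand and receptor (Vegfa and Kdr) were thus both lower. Of 16 flow-responsive genes, 7 rose, 4 fell and 5 were not called, with a median log2 of 0.29 (-0.11 without TEV replicate 2), and 7 fell without TEV replicate 2. Nos3, endothelial nitric oxide synthase, rose from 123 and 118 to 282 and 336 CPM, and Heg1 from 311 and 279 to 614 and 708 CPM. The shear-induced factors Klf2 (from 19.3 and 18.1 to 10.8 and 11.2 CPM) and Klf4 (from 84.0 and 74.8 to 53.5 and 49.3 CPM) and the anticoagulant receptor Thbd, thrombomodulin (from 492 and 459 to 114 and 164 CPM), fell.

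Junction genes moved both ways, as did genes at large (25.1% of all tested higher, 24.6% lower). Of 27, 12 rose, 7 fell and 8 were not called, with a median log2 of 0.01 (-0.11 with library size alone, -0.10 without vehicle replicate 2). Cgnl1 (0.90 ± 0.09), Ctnna1 (0.78 ± 0.06), F11r (0.77 ± 0.10) and Jup (0.54 ± 0.09) rose. Tjp1, the scaffold ZO-1, fell from 337 and 301 to 193 and 223 CPM, and Jam2 from 38.1 and 30.7 to 14.4 and 9.34 CPM. The gap junction gene Gja1, connexin 43, fell from 463 and 483 to 94.5 and 108 CPM (log2 -2.22 ± 0.09, adjusted p = 1.21e-05). The channel gene Panx1 fell from 14.4 and 14.4 to 3.78 and 5.50 CPM. Of 12 claudins tested across the genome, 7 were higher and 3 lower, with Cldn5 among the latter.

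Of 27 vasoactive genes, 9 rose, 13 fell and 5 were not called, with a median log2 of -0.57. Edn1, endothelin 1, a constrictor, rose from 26.6 and 27.6 to 193 and 265 CPM (log2 3.08 ± 0.16, adjusted p = 2.45e-05), and Ece1, which matures it, from 483 and 469.8 to 680.4 and 728 CPM. F2rl1, the protease receptor PAR2, rose from 14.9 and 14.8 to 67.4 and 59.1 CPM (log2 2.09 ± 0.11, adjusted p = 2.62e-05), while F2r, the thrombin receptor PAR1, fell from 444 and 395 to 225 and 227 CPM (log2 -0.89 ± 0.08, adjusted p = 0.000243). The 2 protease receptors thus moved in opposite directions. Ptgs1, cyclooxygenase 1, fell from 316 and 308 to 23.2 and 18.7 CPM (log2 -3.90 ± 0.12, adjusted p = 4.70e-06), and Ptges, which makes prostaglandin E2, from 129 and 300.4 to 3.83 and 4.65 CPM (log2 -5.64 ± 0.45, adjusted p = 0.000138), with vehicle replicate 2 over 2-fold above vehicle replicate 1. Ptgs2, cyclooxygenase 2, stood at 1325 and 1898 CPM with vehicle and 3109 and 2132 CPM with TEV; its call as higher (log2 0.70 ± 0.24, adjusted p = 0.0479) was lost without TEV replicate 1 (adjusted p = 0.224) or vehicle replicate 1 (adjusted p = 0.198). Nos2 fell from 9.57 and 13.4 to 0.639 and 0.815 CPM and Npr3, a clearance receptor for natriuretic peptides, from 107 and 86.7 to 9.33 and 20.2 CPM, whereas Npr1 (0.48 ± 0.09) and Ddah1 (0.69 ± 0.08), which degrades an inhibitor of nitric oxide synthase, rose.

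Coagulation genes were called in 20 of 21 cases: 11 rose, 9 fell and 1 was not called, with a median log2 of 0.34. Plat, tissue plasminogen activator, stood at 173 and 183 CPM with vehicle and 2245 and 1568 CPM with TEV (log2 3.42 ± 0.17, adjusted p = 2.37e-05), and Plau, urokinase, at 1019 and 1084 CPM with vehicle and 239 and 393 CPM with TEV (log2 -1.73 ± 0.21, adjusted p = 0.000766). The 2 activators went opposite ways, with both TEV libraries apart from both vehicle libraries, as for 78.9% of all genes tested. Tfpi2 rose from 49.4 and 59.9 to 693 and 582 CPM, and Procr, the protein C receptor, from 157 and 170.4 to 682 and 735 CPM. Pros1, protein S, rose from 304 and 313 to 779.7 and 664 CPM, and F8 from 7.25 and 7.17 to 28.3 and 27.5 CPM. Entpd1, which degrades ATP and ADP, rose from 49.7 and 46.4 to 132 and 148 CPM. F3, tissue factor, the trigger of coagulation, fell from 61.3 and 64.2 to 3.22 and 4.79 CPM (log2 -3.94 ± 0.19, adjusted p = 1.97e-05). Serpinb2, a plasminogen activator inhibitor, fell from 11.6 and 25 to 1.55 and 1.86 CPM, and Tfpi (-0.41 ± 0.08) and F5 (-0.77 ± 0.16) fell. Of 14 leukocyte adhesion genes, 7 rose, 3 fell and 4 were not called, with a median log2 of 0.23, and 4 rose without either vehicle library or without TEV replicate 1. Sele, E-selectin, rose from 4.99 and 12.6 to 46.9 and 59.1 CPM, and Icam1 from 45.5 and 99.3 to 306 and 329 CPM (log2 2.14 ± 0.32, adjusted p = 0.00192), with vehicle replicate 2 above vehicle replicate 1 by over 2-fold in both. Vcam1 fell from 298 and 552 to 62.9 and 91.8 CPM (log2 -2.45 ± 0.31, adjusted p = 0.000855), and Podxl, a sialomucin of the lumen, from 154 and 150.2 to 37.5 and 51.3 CPM.

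The fibroblast, mesothelial and pericyte lists had the lowest median changes of the 76 lists counted. Of 18 fibroblast markers, 2 rose, 14 fell and 2 were not called, with a median log2 of -5.03 (median -4.44 with near-empty genes set at their bound). Pdgfra fell from 162 and 139 to 3.91 and 4.72 CPM (log2 -5.11 ± 0.14, adjusted p = 3.46e-06), and Prrx1, a mesenchymal homeobox factor, from 229.7 and 209 to 0.444 and 0.904 CPM. Npnt, nephronectin, fell from 47.0 and 47.2 to 2.11 and 3.25 CPM. The 2 that rose were Thy1 and Meox1, a homeobox factor, which went from 4.13 and 6.20 to 49.2 and 48.2 CPM (log2 3.25 ± 0.19, adjusted p = 3.85e-05). Of 17 pericyte and smooth muscle genes, 1 rose, 14 fell and 2 were not called, with a median log2 of -2.88. Pdgfrb fell from 123 and 103 to 2.50 and 2.56 CPM, and Acta2, smooth muscle actin, from 973 and 953 to 114 and 147 CPM. Rgs5 fell from 4.32 and 5.15 to 0.361 and 0.306 CPM, and Des, desmin, from 10.3 and 9.05 to 0.139 and 0.267 CPM. Of 11 mesothelial markers, 3 rose, 8 fell and 0 were not called, with a median log2 of -3.83. Msln had 2.39 and 1.64 CPM with vehicle and no count with TEV, at least 79.8-fold lower, while the keratins Krt18 (from 5.88 and 5.36 to 30.6 and 32.1 CPM) and Krt19 (from 9.99 and 9.33 to 27.6 and 29.1 CPM) and the glycoprotein Gpm6a (1.53 ± 0.16) rose. Both keratins also belong to the colon epithelium list. Of 16 macrophage and leukocyte markers, 1 rose, 9 fell and 6 were not called, with a median log2 of -1.25, with Lyz2, lysozyme, from 24.4 and 29.1 to 4.86 and 3.16 CPM. Of 6 lung epithelial markers, 0 rose, 2 fell and 4 were not called, with a median log2 of -0.62, with no call left without vehicle replicate 1. Of 5 blood cell and platelet markers, 0 rose, 3 fell and 2 were not called, with a median log2 of -1.85, with none left without vehicle replicate 1 or TEV replicate 2 and 1 left without vehicle replicate 2 or TEV replicate 1. Of 10 colon epithelium genes, which could mark the tumour of origin, 4 rose, 3 fell and 3 were not called, with a median log2 of 0.15 (-0.03 without TEV replicate 2). Cldn3, a claudin of epithelium, rose from 0.464 and 0.418 to 2.47 and 2.79 CPM, and Cdh17, a cadherin of gut epithelium, fell from 2.65 and 2.61 to 0.167 and 0.191 CPM.

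Matrix genes fell with the stromal markers, whose part was not tested. Of 39 fibrillar and other matrix genes, 3 rose, 33 fell and 3 were not called, with a median log2 of -2.85, and of 37 collagens tested, 3 were higher and 23 lower. Col1a1 stood at 1186 and 1035 CPM with vehicle and 11.7 and 17.3 CPM with TEV (log2 -6.25 ± 0.21, adjusted p = 6.39e-06), and Col3a1 at 378 and 329 CPM with vehicle and 19.6 and 17.2 CPM with TEV. Col6a1 fell from 175 and 159 to 5.0 and 4.75 CPM, and Bgn, biglycan, from 3168 and 2846 to 387 and 416 CPM. Fbln2, fibulin 2, fell from 3986 and 3555 to 503 and 540.3 CPM. TEV values lay over 5-fold below vehicle values in each of these 5 genes. Lox, which crosslinks collagen, fell from 200.3 and 186 to 21.5 and 24.9 CPM, and Ltbp2, which binds latent TGF-beta, from 233 and 214 to 4.97 and 5.25 CPM. Thbs1, thrombospondin 1, an inhibitor of angiogenesis, fell from 5244 and 4614 to 1724 and 2239 CPM, and Col5a2 from 1487 and 1416 to 330.5 and 423 CPM. Against this, Loxl4, a relative of Lox, rose from 38.0 and 34.9 to 491 and 333 CPM (log2 3.50 ± 0.19, adjusted p = 3.18e-05), and Tnc, tenascin C, from 2901 and 3092 to 3952 and 4637 CPM (log2 0.52 ± 0.09, adjusted p = 0.00328). Of 23 basement membrane genes, 4 rose, 9 fell and 10 were not called, with a median log2 of -0.15. Col4a5 rose from 107 and 101 to 372 and 304 CPM, while Lamb1 (-1.24 ± 0.07), Nid1 (-0.42 ± 0.09), Nid2 (-1.73 ± 0.13) and Col18a1 (-0.94 ± 0.10), the source of endostatin, fell, and Col15a1 fell from 186 and 209 to 3.00 and 4.52 CPM.

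Of 31 matrix proteases and inhibitors, 4 rose, 24 fell and 3 were not called, with a median log2 of -1.86. The membrane-type protease Mmp14 fell from 269 and 278 to 64.6 and 85.5 CPM and Mmp2, which it activates, from 215 and 205 to 70.2 and 87.2 CPM. The inhibitors Timp1 (from 387 and 452 to 236 and 258 CPM), Timp2 (from 2075 and 1839 to 341 and 365 CPM) and Timp3 (from 860.4 and 648 to 366 and 301 CPM) fell as well. Protease and inhibitor were thus lower together. Mmp19 (-4.35 ± 0.16), Mmp11 (-3.16 ± 0.21), Adamts2 (-4.95 ± 0.13) and Serpinf1 (-7.49 ± 0.22), the anti-angiogenic factor PEDF, fell further, and Mmp10 stood at 29.8 and 125 CPM with vehicle and 0.250 and 0.306 CPM with TEV, with vehicle replicate 2 well above vehicle replicate 1. Adam8 (1.40 ± 0.19) and Adam15 (0.62 ± 0.08) rose. Of 19 integrins, 3 rose, 14 fell and 2 were not called, with a median log2 of -0.87. Itga3, a laminin receptor, rose from 261 and 241 to 966 and 991 CPM (log2 1.96 ± 0.08, adjusted p = 9.82e-06). Itga4 rose from 34.7 and 32.6 to 90.2 and 118 CPM and Itgb3 from 192 and 201 to 319 and 353 CPM, and Itgb5 fell from 134 and 118 to 2.75 and 2.51 CPM (log2 -5.59 ± 0.13, adjusted p = 2.18e-06). Itga5 (-0.57 ± 0.10), Itgav (-0.70 ± 0.14) and Itga6 (-0.87 ± 0.15), the alpha chains for fibronectin, vitronectin and laminin, fell by under 2-fold. All 8 syndecans and glypicans tested were lower, with a median log2 of -1.92. Gpc1, a heparan sulfate proteoglycan, fell from 102 and 96.2 to 3.00 and 3.06 CPM (log2 -5.03 ± 0.11, adjusted p = 2.18e-06), and Sdc1 from 115 and 113 to 13.6 and 20.6 CPM.

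Genes of DNA replication and division rose nearly throughout. Of 46 S phase genes, 39 rose, 0 fell and 7 were not called, with a median log2 of 1.08, and of 40 mitosis genes, 38 rose, 0 fell and 2 were not called, with a median log2 of 1.30. All 6 subunits of the MCM2-7 helicase, which unwinds DNA at origins, were higher, with a median log2 of 1.11. Mcm6 stood at 63.1 and 63.1 CPM with vehicle and 137 and 138 CPM with TEV (log2 1.13 ± 0.07, adjusted p = 5.63e-05), and Mcm5 at 1.21 and 1.32 CPM with vehicle and 4.30 and 5.03 CPM with TEV (log2 1.89 ± 0.22, adjusted p = 0.000640). Cdc6, which loads the helicase, rose from 6.90 and 8.43 to 27.7 and 30.0 CPM, and Rrm2, the limiting subunit of ribonucleotide reductase, from 42.3 and 37.8 to 113 and 133 CPM. E2f7, a repressor of E2F targets, rose from 10.5 and 10.8 to 37.6 and 34.2 CPM. In mitosis, Cdk1 rose from 30.3 and 29.4 to 66.0 and 81 CPM (log2 1.30 ± 0.11, adjusted p = 0.000195), and the kinase Plk1 from 12.0 and 8.29 to 25.7 and 30.8 CPM. Aurkb rose from 8.96 and 8.08 to 18.8 and 23.5 CPM, and Mki67 from 87.3 and 65.3 to 161 and 187 CPM. The promoters of Mcm6 and Cdk1 are shown because the E2F letters TTTGGCGC and the CHR letters TTTGAA, each searched on both strands, are frequent in the 2 lists. Shown are the 200 bases before the start, from RefSeq on GRCm38.p6, with each match in capitals; shares were counted over 250 bases before to 50 after it.
Mcm6, chr1:128359706-128359905, minus strand: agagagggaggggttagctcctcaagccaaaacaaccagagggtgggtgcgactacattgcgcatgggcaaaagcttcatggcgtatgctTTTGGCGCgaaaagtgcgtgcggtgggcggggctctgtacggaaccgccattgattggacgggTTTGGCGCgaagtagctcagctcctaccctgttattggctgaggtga
Cdk1, chr10:69352913-69353112, minus strand: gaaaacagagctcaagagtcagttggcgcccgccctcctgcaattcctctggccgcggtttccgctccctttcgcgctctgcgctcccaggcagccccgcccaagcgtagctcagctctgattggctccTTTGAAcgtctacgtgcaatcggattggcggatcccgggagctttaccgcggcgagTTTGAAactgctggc
TTTGGCGC stood in 15.6% of 45 S phase promoters against 0.514% of all 32851 promoters searched, and TTTGAA in 74.3% of 35 mitosis promoters against 17.9% of all. Among promoters of tested genes, the shares were 0.841% for TTTGGCGC and 12.3% for TTTGAA. All 24 mitosis genes with TTTGAA were higher, as were 7 of the 9 with a promoter and no match. The second E2F form TTTCCCGC stood in 15.6% of S phase promoters, 0% of mitosis promoters, 1.07% of all and 1.8% of those of tested genes. Letters of other factors were searched the same way in their own lists. TGGAAA of the tonicity element stood in 26.1% of osmotic promoters against 21.4% of all. TGACNNNGC of the antioxidant element stood in 33.3% of redox promoters against 12.4% of all. TGCGCNC, a separate motif and not a form of that element, stood in 15.2% of redox promoters against 15.4% of all. CGTGGGAA of RBPJ was in 2 of 17 Notch promoters (11.8%) against 0.734% of all, and a second form, TGTGGGAA, in 0 of 17 against 1.86%. Among promoters of tested genes, the 2 forms stood in 1.02% and 1.59%. A match is a description of the letters and not of a bound site.

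Of 17 cyclins and CDK inhibitors of the G1 phase, 4 rose, 6 fell and 7 were not called, with a median log2 of 0.02 (-0.11 with library size alone, -0.15 without TEV replicate 2, -0.03 without vehicle replicate 2), with 1 higher without TEV replicate 2, 2 higher and 5 lower without vehicle replicate 1, and 2 higher and 3 lower without vehicle replicate 2. Ccnd2, cyclin D2, fell from 1321 and 1122 to 366 and 504 CPM (log2 -1.49 ± 0.16, adjusted p = 0.000442), and its partner Cdk6 from 95.9 and 106 to 58.1 and 63.2 CPM. Rb1, the brake on E2F, fell from 41.7 and 38.5 to 22.4 and 24.2 CPM, while the inhibitor Cdkn1b rose from 16.1 and 16.4 to 23.7 and 24.3 CPM. Of 28 DNA repair genes, 19 rose, 1 fell and 8 were not called, with a median log2 of 0.75. Fancd2, of the crosslink repair pathway, rose from 3.67 and 3.24 to 34.1 and 20.3 CPM (log2 2.97 ± 0.32, adjusted p = 0.000471), and Neil3, a glycosylase, from 2.67 and 3.24 to 12.4 and 12.7 CPM. Brca1 rose from 11.9 and 11.2 to 31.5 and 31.6 CPM and Parp1 from 61.3 and 56.8 to 116 and 121 CPM. Of 22 p53 targets, 8 rose, 3 fell and 11 were not called, with a median log2 of 0.15, and 1 fell without vehicle replicate 2 or either TEV library. Gdf15 (1.84 ± 0.15), Ckap2 (1.20 ± 0.09) and Eda2r (0.92 ± 0.15) rose and Trp53inp1 (-0.55 ± 0.10) fell. Of 13 histone genes, 4 rose, 3 fell and 6 were not called, with a median log2 of 0.23, with 1 lower without either vehicle library. H2afx (0.86 ± 0.13) and H1f0 (0.84 ± 0.08), which rose, are not replication-dependent histones although listed with them, and Hist1h2ac (1.07 ± 0.22) is. PolyA selection captures replication-dependent histone transcripts poorly.

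Most called genes of osmotic and heat stress rose. Of 17 osmotic stress genes, 10 rose, 3 fell and 4 were not called, with a median log2 of 0.62, and 6 rose without TEV replicate 1 or vehicle replicate 2. Besides Akr1b3, Sgk1, a kinase that regulates sodium transport, rose from 162 and 153 to 924 and 841 CPM (log2 2.49 ± 0.09, adjusted p = 7.40e-06), and Pnpla6 from 38.9 and 27.4 to 88.7 and 90.1 CPM. The urea transporter Slc14a1 fell from 69.0 and 57.8 to 0.139 and 0.115 CPM (log2 -8.98 ± 0.22, adjusted p = 2.18e-06), and the water channel Aqp1 from 72.7 and 62.3 to 19.5 and 18.6 CPM. The cotransporter Slc12a2 fell from 155 and 163 to 94.3 and 96.4 CPM. Of 26 genes of the cytosolic heat shock list, 18 rose, 2 fell and 6 were not called, with a median log2 of 0.51. Hspd1 and Hspe1, of the mitochondrial chaperonin, are not cytosolic although listed with them. Hspa1b, inducible HSP70, stood at 37.9 and 35.1 CPM with vehicle and 1353 and 716 CPM with TEV (log2 4.82 ± 0.32, adjusted p = 6.17e-05), Hspa1a at 6.32 and 6.06 CPM with vehicle and 120.1 and 57.0 CPM with TEV, and Cryab, a small heat shock protein, at 19.9 and 19.8 CPM with vehicle and 262 and 206 CPM with TEV (log2 3.56 ± 0.15, adjusted p = 1.27e-05). TEV replicate 1 was the higher TEV library for these 3 genes, and both TEV libraries lay above vehicle. The groups did not overlap for 78.9% of all genes tested. Hspa1a and Hspa1b are near-identical copies, so counts may be split between them. Hspa4l (3.02 ± 0.23) and Hsph1 (2.15 ± 0.16), exchange factors for HSP70, the factor Hsf2 (2.19 ± 0.38) and the co-chaperone Bag3 (1.06 ± 0.13) rose, and the constitutive Hspa8 rose from 2809 and 2826 to 4824 and 5072 CPM (log2 0.81 ± 0.06, adjusted p = 0.000103). Hsp90ab1 rose by 0.39 ± 0.06. The mitochondrial chaperonin Hspd1 fell from 509 and 531 to 350.1 and 367 CPM (log2 -0.54 ± 0.08, adjusted p = 0.00160), and Hspb8 from 66.2 and 72.6 to 24.9 and 25.8 CPM.

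**Figure D3:**
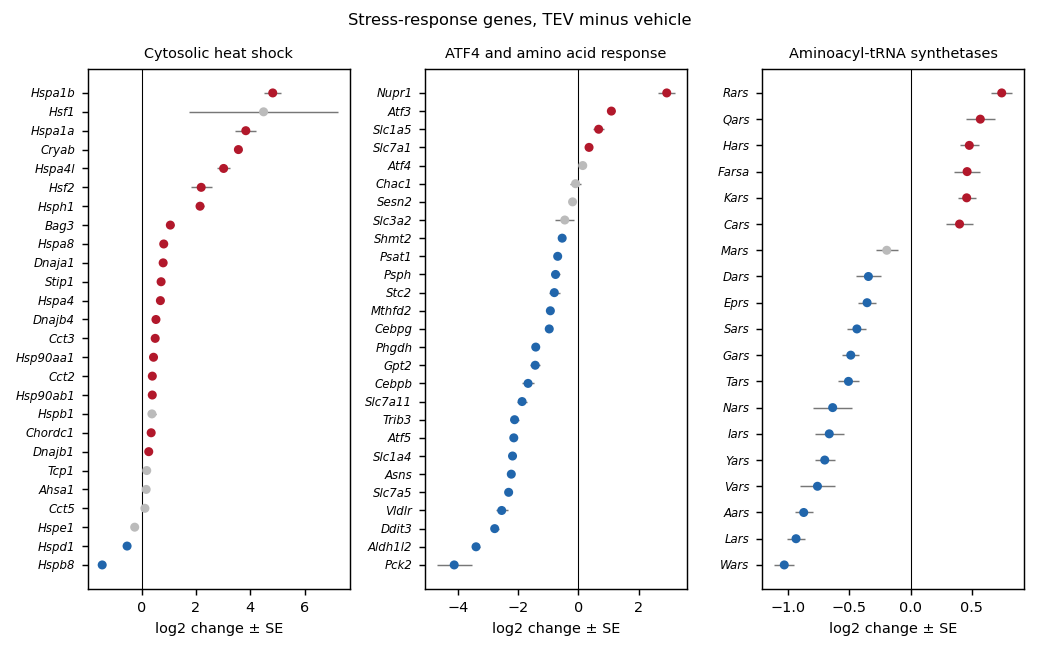
Log2 change with TEV ± SE for each tested member of 3 lists, with red called higher, blue lower and grey not called. Heat shock genes lie mostly to the right of 0, genes of the ATF4 and amino acid response mostly to the left, and the tRNA synthetases split into 6 higher and 12 lower.

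The amino acid response went the other way. Of 27 genes of the ATF4 and amino acid response, 4 rose, 19 fell and 4 were not called, with a median log2 of -0.97, with 2 higher without either vehicle library. ATF4 is the factor that switches on amino acid synthesis and uptake when amino acids run short or protein folding is stressed. Asns, asparagine synthetase, stood at 206 and 199 CPM with vehicle and 44.2 and 41.8 CPM with TEV (log2 -2.23 ± 0.08, adjusted p = 7.40e-06). Ddit3, the factor CHOP, stood at 72.5 and 70.5 CPM with vehicle and 10.6 and 10.2 CPM with TEV (log2 -2.79 ± 0.13, adjusted p = 1.97e-05), and Trib3, a pseudokinase that it induces, at 109 and 103 CPM with vehicle and 20.9 and 27.5 CPM with TEV. The transporter Slc7a5 fell from 155 and 138 to 29.9 and 28.9 CPM, and the serine synthesis gene Phgdh from 329 and 306 to 108 and 129 CPM. Psat1 fell from 295 and 279 to 185 and 171 CPM, and the mitochondrial folate gene Aldh1l2 from 53.5 and 46.6 to 4.72 and 4.72 CPM. Vldlr fell from 109 and 95.2 to 13.9 and 20.6 CPM. TEV lay below vehicle in all these genes, and the groups lay apart for 78.9% of all genes tested. Against the list, Nupr1, a stress-induced chromatin protein, rose from 88.6 and 108 to 979 and 529 CPM (log2 2.94 ± 0.28, adjusted p = 0.000288), and Atf3 from 16.2 and 20.3 to 39.5 and 38.3 CPM. Of 19 tRNA synthetases, which load amino acids on tRNA, 6 rose, 12 fell and 1 was not called, with a median log2 of -0.44, with 3 higher and 11 lower without vehicle replicate 1. Aars fell from 450.4 and 435 to 251 and 233 CPM, and Gars from 411 and 406 to 296 and 286 CPM (log2 -0.49 ± 0.07, adjusted p = 0.00148). Lars fell from 182 and 180.5 to 94.0 and 95.4 CPM and Wars from 142 and 140.2 to 68.4 and 69.8 CPM (log2 -1.03 ± 0.08, adjusted p = 0.000138). Rars, in contrast, rose from 245 and 283 to 438 and 446 CPM (log2 0.74 ± 0.09, adjusted p = 0.000677), and Hars from 90.8 and 92.3 to 130.3 and 125 CPM. Kars rose from 132 and 137 to 181 and 189 CPM. The promoters of Asns and Gars are shown since both hold TGATGNAA, the letters of an amino acid response element, within 30 bases of the start.
Asns, chr6:7693210-7693409, minus strand: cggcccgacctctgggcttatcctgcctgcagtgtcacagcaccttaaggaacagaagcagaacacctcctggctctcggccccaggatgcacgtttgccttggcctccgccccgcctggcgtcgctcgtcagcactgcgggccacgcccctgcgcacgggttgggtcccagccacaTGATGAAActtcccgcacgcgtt
Gars, chr6:55037801-55038000, plus strand: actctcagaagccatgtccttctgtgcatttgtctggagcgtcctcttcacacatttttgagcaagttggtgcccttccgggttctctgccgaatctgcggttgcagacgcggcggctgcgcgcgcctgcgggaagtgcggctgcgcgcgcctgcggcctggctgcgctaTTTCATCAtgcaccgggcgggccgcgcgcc
TGATGNAA, on either strand, stood in 45.5% of 11 tRNA synthetase promoters and 32.1% of 28 promoters of the ATF4 list. It stood in 3.97% of all promoters and 2.36% of those of tested genes. The 5 synthetases with the letters (Aars, Gars, Iars, Tars and Yars) were all lower, and of the 6 with a promoter and no match 3 were higher and 3 lower. In the ATF4 list, 6 of 9 genes with the letters were lower and 2 higher, and of the 15 with a promoter and no match 11 were lower and 1 higher. Of 21 stress genes of the endoplasmic reticulum, 1 rose, 7 fell and 13 were not called, with a median log2 of -0.15. Hsp90b1 (-0.72 ± 0.07), Pdia4 (-0.57 ± 0.08), Xbp1 (-0.53 ± 0.08) and Hspa5 (-0.41 ± 0.09), the chaperone BiP, fell by under 2-fold.

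Of 33 redox genes, 12 rose, 9 fell and 12 were not called, with a median log2 of 0.11 (-0.01 with library size alone). Me1, malic enzyme, which makes NADPH, stood at 121 and 121 CPM with vehicle and 1196 and 882 CPM with TEV (log2 3.10 ± 0.15, adjusted p = 2.09e-05), and Nqo1, a quinone reductase, at 69.7 and 69.1 CPM with vehicle and 260.4 and 266 CPM with TEV (log2 1.92 ± 0.07, adjusted p = 8.64e-06). Gpx1 rose from 131 and 151 to 367 and 380.1 CPM, and G6pdx, the entry to the pentose phosphate pathway, from 95.5 and 101 to 235 and 230.4 CPM. Gstm1 rose from 41.7 and 33.6 to 115 and 129 CPM and Sod1 from 115 and 127 to 272 and 245 CPM. The secreted enzymes went down, with Gpx3 from 89.9 and 89.0 to 9.63 and 8.85 CPM (log2 -3.28 ± 0.10, adjusted p = 4.13e-06) and Sod3 from 52.4 and 48.9 to 14.2 and 13.6 CPM. Haem oxygenase, Hmox1, fell from 781 and 879 to 491 and 614 CPM. The metallothioneins, which bind zinc and copper, fell: Mt1 from 66.0 and 83.7 to 2.36 and 2.89 CPM (log2 -4.81 ± 0.20, adjusted p = 1.20e-05) and Mt2 from 51.4 and 82.3 to 0.916 and 1.11 CPM (log2 -6.01 ± 0.28, adjusted p = 1.85e-05). Of 33 hypoxia and glycolysis genes, 12 rose, 8 fell and 13 were not called, with a median log2 of 0.01 (-0.11 with library size alone, -0.03 without vehicle replicate 1). Hif1a, the oxygen-regulated factor, rose from 350.0 and 407 to 1295 and 999.9 CPM (log2 1.60 ± 0.15, adjusted p = 0.000235), and the glycolytic gene Hk1 from 259 and 273 to 703 and 600.1 CPM. Slc2a1, the glucose transporter GLUT1, rose from 184 and 207 to 369 and 385 CPM, and Pgk1 from 911 and 968 to 1806 and 1665 CPM. Gapdh rose from 2042 and 2320.4 to 3736 and 3659 CPM, and Aldoa from 1009 and 1065 to 1785 and 1542 CPM. Pkm rose from 2523 and 2577 to 4071 and 3807 CPM. Other genes that hypoxia induces fell: Ndrg1 from 223 and 214 to 21.7 and 27.3 CPM (log2 -3.15 ± 0.12, adjusted p = 9.82e-06), and Egln3 from 37.8 and 45.4 to 12.5 and 18.8 CPM. Bnip3 fell from 50.7 and 59.9 to 34.5 and 30.2 CPM, and the lactate exporter Slc16a3 from 45.2 and 52.1 to 12.8 and 17.4 CPM.

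Nuclear-encoded respiratory chain genes rose more often than they fell, and mitochondrially encoded transcripts fell more often than they rose. Of 31 nuclear-encoded respiratory chain genes, 19 rose, 2 fell and 10 were not called, with a median log2 of 0.37, and 9 rose without vehicle replicate 1. Cox4i1 rose from 207 and 223 to 354 and 349.6 CPM and Cox6c from 80.7 and 87.0 to 138 and 138 CPM. Sdha rose from 254 and 247 to 424 and 394 CPM and Atp5b from 1008 and 1032 to 1378 and 1312 CPM, all 4 by under 2-fold, and Ndufv1 (-0.50 ± 0.09) and Sdhc (-0.55 ± 0.09) fell. Of 12 mitochondrially encoded transcripts, 1 rose, 6 fell and 5 were not called, with a median log2 of -0.27, with mt-Atp6 from 1106 and 1211 to 711 and 761 CPM and mt-Nd5 from 2075 and 2076 to 1469 and 1558 CPM. Of 25 mitochondrial ribosomal protein genes, 11 rose, 1 fell and 13 were not called, with a median log2 of 0.16. Leaving out a library gave 5 to 7 higher, the fewest without vehicle replicate 1, and none lower. Mrpl45 (0.98 ± 0.12) and Mrpl1 (0.85 ± 0.12) rose. Of 20 citric acid cycle genes, 10 rose, 1 fell and 9 were not called, with a median log2 of 0.25. Idh1 rose from 73.8 and 70.2 to 186 and 141 CPM, Pdhb (0.59 ± 0.08) and Ogdh (0.53 ± 0.07) by less, and Pdha1, of the same pyruvate dehydrogenase complex as Pdhb, fell from 166 and 163 to 76.3 and 85.5 CPM (log2 -1.02 ± 0.10, adjusted p = 0.000266). Of 27 fatty acid oxidation genes, 8 rose, 9 fell and 10 were not called, with a median log2 of -0.10, with 5 higher and 6 lower without either vehicle library and 8 and 5 without TEV replicate 1. Abcd2, a peroxisomal importer of long fatty acids, rose from 3.74 and 3.1 to 84.8 and 32.6 CPM and Slc25a20 from 33.6 and 35.8 to 81.6 and 74.5 CPM, and Cpt2, the inner membrane carnitine transferase, fell from 21.9 and 18.1 to 7.11 and 11.1 CPM.

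Lipid genes were mixed, as were all genes tested (25.1% higher, 24.6% lower). Of 25 cholesterol synthesis genes, 8 rose, 6 fell and 11 were not called, with a median log2 of 0.02 (-0.10 with library size alone, -0.03 without TEV replicate 2, -0.09 without vehicle replicate 2), and 5 rose and 4 fell without vehicle replicate 1. Idi1 (0.69 ± 0.13) and the sterol carrier Stard4 (1.08 ± 0.13) rose, and Sqle (-0.67 ± 0.10) and Hmgcs1 (-0.72 ± 0.13) fell. Of 22 genes of LXR targets and sterol handling, 4 rose, 9 fell and 9 were not called, with a median log2 of -0.09. The cholesterol exporters parted, with Abcg1 from 74.3 and 71.3 to 223 and 195 CPM (log2 1.52 ± 0.09, adjusted p = 4.30e-05) and Abca1 from 198 and 174 to 44.3 and 67.6 CPM (log2 -1.73 ± 0.20, adjusted p = 0.000592). Apoe rose from 13.3 and 10.8 to 32.3 and 32.3 CPM, and Npc1, which releases cholesterol from lysosomes, fell from 125 and 128 to 59.6 and 56.8 CPM. Gpr183, the receptor for an oxysterol made downstream of Ch25h, fell from 4.11 and 3.20 to 0.111 and 0.191 CPM (log2 -4.50 ± 0.46, adjusted p = 0.000379). Of 23 fatty acid synthesis and lipid droplet genes, 5 rose, 9 fell and 9 were not called, with a median log2 of -0.30. Fabp4, a fatty acid carrier of capillary endothelium, stood at 100 and 109.9 CPM with vehicle and 751 and 771 CPM with TEV (log2 2.86 ± 0.08, adjusted p = 3.61e-06), and Fabp5 at 51.8 and 58.0 CPM with vehicle and 558 and 600.2 CPM with TEV (log2 3.40 ± 0.10, adjusted p = 3.66e-06). Fasn rose from 93.3 and 92.1 to 246 and 258 CPM, and Plin2, which coats lipid droplets, fell from 227 and 255 to 87.1 and 99.6 CPM. Of 26 nucleotide and one-carbon genes, 11 rose, 6 fell and 9 were not called, with a median log2 of 0.11 (-0.02 with library size alone, -0.01 without TEV replicate 2). Odc1, the first step of polyamine synthesis, rose from 378 and 688 to 1981 and 1958 CPM (log2 1.89 ± 0.25, adjusted p = 0.00108), and Ctps and Paics rose by 0.88 ± 0.08 and 0.62 ± 0.07, while the mitochondrial folate genes Mthfd2 (-0.93 ± 0.10), Mthfd1l (-0.84 ± 0.09) and Shmt2 (-0.54 ± 0.08) fell.

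Of 33 genes of the type I interferon response, 23 rose, 1 fell and 9 were not called, with a median log2 of 1.16. Isg15, a ubiquitin-like modifier, stood at 0.790 and 1.01 CPM with vehicle and 17.7 and 5.74 CPM with TEV (log2 3.70 ± 0.57, adjusted p = 0.00209), Usp18, its protease, at 1.18 and 0.870 CPM with vehicle and 18.4 and 6.67 CPM with TEV, and Oas1a, which senses double-stranded RNA, at 0.232 and 0.279 CPM with vehicle and 4.33 and 2.24 CPM with TEV. TEV replicate 1 was above TEV replicate 2 for each, and over the list the median difference between the TEV libraries was 0.47 log2 against 0.05 between the vehicle libraries. Ifitm3, which blocks viral fusion, rose from 120.0 and 149 to 844 and 693 CPM (log2 2.52 ± 0.14, adjusted p = 3.43e-05), and Bst2, tetherin, from 34.6 and 35.6 to 184 and 142 CPM. The RNA sensor Ifih1 rose from 4.76 and 4.6 to 21.6 and 11.8 CPM and Ddx58 from 84.0 and 90.1 to 212 and 165 CPM. Rtp4 had no count with vehicle and 1.19 and 0.675 CPM with TEV, at least 20.0-fold higher. The Isg15 promoter is shown because it holds the letters of an interferon-stimulated response element, GAAA, any 2 bases and GAAA again, in 3 overlapping copies, in capitals, on RefSeq's GRCm38.p6.
Isg15, chr4:156200819-156201018, minus strand: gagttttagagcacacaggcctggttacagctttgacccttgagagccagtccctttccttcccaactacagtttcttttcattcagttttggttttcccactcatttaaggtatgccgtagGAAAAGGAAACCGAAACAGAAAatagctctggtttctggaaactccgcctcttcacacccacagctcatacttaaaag
These letters, on either strand, stood in 44.0% of 25 promoters of this list, 3.44% of all and 2.98% of those of tested genes. Of 11 genes with the letters 8 were higher, against 9 of 12 without. Of 18 interferon receptor and JAK-STAT genes, 5 rose, 9 fell and 4 were not called, with a median log2 of -0.43; 2 rose without either vehicle library or TEV replicate 1, and 6 fell without vehicle replicate 2 or TEV replicate 1. Ifnar1, a chain of the type I receptor, fell from 139 and 145 to 60.8 and 68.6 CPM (log2 -1.13 ± 0.09, adjusted p = 0.000130), and Ifngr1 from 55.0 and 65.3 to 28.5 and 35.6 CPM. The kinase Jak1 fell from 373 and 385 to 279.6 and 284 CPM and Jak2 from 38.3 and 33.9 to 17.2 and 18.7 CPM. The factor Irf1 fell from 12.9 and 22.5 to 4.58 and 4.84 CPM.

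Of 26 MHC class I and proteasome genes, 16 rose, 1 fell and 9 were not called, with a median log2 of 0.39, and 9 rose without vehicle replicate 1. The class I heavy chains H2-K1 and H2-D1 rose from 44.4 and 64.9 to 119 and 102 CPM and from 160.4 and 191 to 340.4 and 312 CPM. Tapbp, which loads them, rose from 24.4 and 24.3 to 86.6 and 55.6 CPM, while the peptide transporter Tap1 fell from 21.3 and 21.1 to 13.3 and 15.4 CPM. The class I genes are a family of near-identical copies, so their counts are uncertain. Across all proteasome genes, 11 of 19 core subunits and 15 of 20 regulatory subunits were higher. Of 20 nucleic acid sensors and Toll-like receptors, 8 rose, 2 fell and 10 were not called, with a median log2 of -0.02 (0.07 without TEV replicate 1, 0.07 without TEV replicate 2, 0.31 without vehicle replicate 2). Aim2, a DNA sensor, rose from 22.2 and 17.4 to 66.7 and 46.1 CPM, and Myd88, the Toll adaptor, from 24.4 and 24.9 to 52.9 and 46.8 CPM. Tlr2 rose from 4.90 and 7.83 to 14.6 and 11.8 CPM. Of 35 chemokines and cytokines, 6 rose, 11 fell and 18 were not called, with a median log2 of -0.65 (0.74 without vehicle replicate 2), with 19 lower and a median of -1.33 without vehicle replicate 1 and 13 higher without vehicle replicate 2. The vehicle libraries themselves differed, and 7 of 19 genes of this list at 5 CPM or more were over 2-fold higher in vehicle replicate 2. Il7, a lymphocyte survival cytokine, rose from 3.23 and 2.99 to 12.4 and 14.3 CPM, and Ccl7 from 23.6 and 74.5 to 247 and 219.9 CPM and Cxcl16 from 20.5 and 43.9 to 87.3 and 82.2 CPM with vehicle replicate 2 nearer to TEV. Cxcl12, a chemokine for leukocytes and stem cells, fell from 324 and 292 to 52.9 and 74.4 CPM (log2 -2.27 ± 0.16, adjusted p = 8.30e-05), and its scavenger Ackr3 from 60.1 and 61.2 to 6.64 and 12.0 CPM. Kitl, the ligand of Kit, fell from 159.8 and 131 to 41.8 and 44.9 CPM, and Lif from 53.8 and 185 to 19.2 and 21.1 CPM. Il11 fell from 53.2 and 60.4 to 18 and 11.7 CPM and Il6 from 2.51 and 8.43 to 0.278 and 0.433 CPM. Of 22 NF-kB targets and regulators, 6 rose, 5 fell and 11 were not called, with a median log2 of 0.17 (-0.15 without vehicle replicate 1). The count was 3 and 8 without vehicle replicate 1, 14 and 4 without vehicle replicate 2 (median log2 0.84), and 3 and 4 without TEV replicate 1. Their median differed by 0.82 log2 between the vehicle libraries.

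Of 18 complement genes, 5 rose, 8 fell and 5 were not called, with a median log2 of -0.55, with 3 higher and 4 to 7 lower when any of the 4 libraries was left out. Cd59a (2.19 ± 0.09) and Cd55 (0.80 ± 0.09), which protect cells from complement, rose, and Serping1, the C1 inhibitor, fell from 19.8 and 20.2 to 0.805 and 0.547 CPM (log2 -4.92 ± 0.26, adjusted p = 2.85e-05) and C1s1 from 5.74 and 9.19 to 0.250 and 0.344 CPM. Of 14 checkpoint and adenosine genes, 4 rose, 7 fell and 3 were not called, with a median log2 of -0.15. Lgals9, galectin 9, rose from 35.1 and 35.1 to 111 and 99.4 CPM, and Ada, which breaks down adenosine, from 14.2 and 13.3 to 33.0 and 39.9 CPM. Nt5e (CD73), which makes adenosine, fell from 17.6 and 16.9 to 3.41 and 4.18 CPM, and its receptor Adora2a from 11.2 and 12.5 to 3.61 and 3.64 CPM. Adora2b fell from 10.1 and 12.1 to 0.111 and 0.280 CPM (log2 -5.68 ± 0.40, adjusted p = 8.15e-05), and Cd80 from 19.3 and 17.5 to 5.05 and 4.44 CPM.

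Most called genes of the Wnt and growth factor lists fell. Of 30 TGF-beta and BMP genes, 11 rose, 14 fell and 5 were not called, with a median log2 of -0.42, with 7 higher without either vehicle library. Bmp4 rose from 35.6 and 32.8 to 124 and 187 CPM (log2 2.19 ± 0.19, adjusted p = 0.000184), and the BMP-induced Id1 (0.86 ± 0.16) and Id2 (1.04 ± 0.21) and the transducer Smad1 (0.46 ± 0.08) rose, while Bmp2 fell from 29.7 and 37.3 to 1.64 and 2.76 CPM and the antagonist Grem1 from 2169 and 2208 to 19.0 and 19.8 CPM (log2 -6.82 ± 0.09, adjusted p = 5.40e-07). The receptors Tgfbr1 (-1.20 ± 0.12), Tgfbr2 (-0.76 ± 0.13) and Tgfbr3 (-1.83 ± 0.13), the transducer Smad3 (-1.15 ± 0.10) and Inhba (-2.43 ± 0.11), an activin subunit, fell. The ligands split, with Tgfb2 at 1.22 ± 0.14 and Tgfb3 at -2.66 ± 0.15. Of 34 Wnt genes, 6 rose, 21 fell and 7 were not called, with a median log2 of -1.28. Wnt7a, a ligand known from brain vessel growth, rose from 0.0697 and 0.0348 to 5.64 and 2.00 CPM, and Fzd6 from 22.8 and 20.0 to 166 and 153 CPM (log2 2.89 ± 0.10, adjusted p = 7.84e-06), while Fzd1 (-3.32 ± 0.22), Fzd2 (-3.78 ± 0.26) and Fzd7 (-2.58 ± 0.18) fell. The inhibitors Dkk2 (-4.37 ± 0.21) and Dkk3 (-8.34 ± 0.26), the ligand Wnt5a (-1.32 ± 0.13) and its receptor Ror2 (from 36.6 and 16.6 to 0.0278 and 0.127 CPM) fell as well. Of 33 PDGF, FGF, EGF, IGF and HGF genes, 4 rose, 20 fell and 9 were not called, with a median log2 of -1.69. Pdgfd (1.18 ± 0.12) and Met (1.03 ± 0.13), the HGF receptor, rose. Fgf7 fell from 66.0 and 89.5 to 0.389 and 0.446 CPM (log2 -7.50 ± 0.23, adjusted p = 4.70e-06) and Fgf10 from 31.4 and 27.5 to 0.194 and 0.255 CPM. Igf1 fell from 17.5 and 16.9 to 0.750 and 1.39 CPM and Egfr from 185 and 158 to 63.0 and 55.6 CPM. Of 35 axon guidance genes, 5 rose, 23 fell and 7 were not called, with a median log2 of -1.45. Plxna2 (1.47 ± 0.11), Ntn4 (1.36 ± 0.15) and Epha2 (1.09 ± 0.08) rose, and Slit2 (-2.57 ± 0.17), Slit3 (-3.60 ± 0.17), Robo1 (-4.78 ± 0.46), Ntn1 (-5.11 ± 0.21) and Plxnd1 (-1.45 ± 0.17), the semaphorin receptor of endothelium, fell.

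Most called feedback genes of MAPK signalling fell: of 29 immediate early and feedback genes, 7 rose, 19 fell and 3 were not called, with a median log2 of -0.73. Dusp6, a phosphatase of ERK, stood at 117 and 116 CPM with vehicle and 35.0 and 53.9 CPM with TEV (log2 -1.38 ± 0.18, adjusted p = 0.00115), and Dusp5 at 98.9 and 96.7 CPM with vehicle and 18.2 and 29.9 CPM with TEV. Spry1 fell from 13.9 and 12.0 to 0.750 and 1.15 CPM (log2 -3.73 ± 0.25, adjusted p = 6.15e-05), and Spry2 from 84.9 and 88.9 to 35.9 and 46.0 CPM. Etv5 fell from 67.7 and 62.7 to 32.9 and 36.5 CPM; of 7 Sprouty and Spred genes tested, 6 were lower and none higher. Egr1 fell from 87.7 and 88.2 to 46.2 and 44.1 CPM and Phlda1 from 74.1 and 83.6 to 9.72 and 13.5 CPM. The AP-1 genes Fos (from 5.13 and 4.56 to 13 and 16.1 CPM), Fosb (1.92 ± 0.25) and Fosl1 (from 55.2 and 70.1 to 139 and 116 CPM) rose. Of 24 YAP and SRF targets, 7 rose, 7 fell and 10 were not called, with a median log2 of -0.15. Ajuba (1.02 ± 0.15), Cyr61 (0.58 ± 0.12) and the coactivator Wwtr1 (0.56 ± 0.08) rose, and Myl9 (-1.52 ± 0.10), Axl (-0.93 ± 0.08) and Flna (-0.51 ± 0.09) fell. Of 15 retinoic acid genes, 2 rose, 8 fell and 5 were not called, with a median log2 of -0.95. Of the synthesis genes, Aldh1a1 rose from 9.15 and 12.2 to 45.2 and 58.6 CPM and Aldh1a2 fell from 17.7 and 15.9 to 0.0278 and 0.0382 CPM, and Crabp1 (-8.00 ± 0.41), Rarg (-1.33 ± 0.10) and Dhrs3 (-3.24 ± 0.26) fell. Of 13 lysophospholipid genes, 4 rose, 8 fell and 1 was not called, with a median log2 of -1.01. Beside Enpp2, the sphingosine-1-phosphate exporter Spns2 rose, from 73.1 and 68.0 to 133 and 181 CPM, and the receptors S1pr2 (-1.34 ± 0.11), S1pr3 (-4.87 ± 0.37) and Lpar1 (-1.87 ± 0.18) and the lyase Sgpl1 (-1.01 ± 0.08) fell. Of 13 glucocorticoid targets, 4 rose, 6 fell and 3 were not called, with a median log2 of -0.09, with 2 higher without vehicle replicate 2 or TEV replicate 2; Tsc22d3 (-1.90 ± 0.16), Tgm2 (-1.92 ± 0.18), Errfi1 (-1.83 ± 0.13) and Cebpd (-2.95 ± 0.34) fell.

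Receptors and transporters changed in both directions, as did all genes tested (25.1% higher, 24.6% lower). Of 32 G-protein coupled receptors, 9 rose, 14 fell and 9 were not called, with a median log2 of -0.47. Gpr182, an atypical chemokine receptor of endothelium, rose from 4.90 and 3.90 to 35.6 and 42.6 CPM (log2 3.14 ± 0.19, adjusted p = 4.27e-05), and Ptger4, a prostaglandin E2 receptor, from 3.76 and 2.89 to 17.7 and 15.4 CPM. The serotonin receptors Htr1b (from 25.5 and 24.1 to 0.722 and 0.789 CPM) and Htr2a (from 65.2 and 69.9 to 36.8 and 26.7 CPM) and the prostacyclin receptor Ptgir (from 3.00 and 3.69 to 0.0833 and 0.216 CPM) fell. Of 31 ion channels, 7 rose, 18 fell and 6 were not called, with a median log2 of -1.0. Stim1, the calcium store sensor, rose from 53.3 and 50.2 to 173 and 163 CPM (log2 1.70 ± 0.08, adjusted p = 1.93e-05). Trpv4 rose from 0.859 and 0.975 to 3.72 and 4.94 CPM and Ano6 from 200.1 and 180.4 to 397 and 380.1 CPM. The stretch channel Piezo2 fell from 184 and 165 to 37.0 and 44.6 CPM, and Trpc6 from 26.7 and 33.0 to 0.805 and 1.23 CPM. Cacna1c fell from 22.2 and 21.1 to 0.861 and 2.16 CPM. Of 38 solute carriers, 11 rose, 16 fell and 11 were not called, with a median log2 of -0.49, with 6 higher without either vehicle library and 7 without TEV replicate 1; Slc38a4 rose from 4.92 and 8.22 to 35.8 and 39.1 CPM, and Slc7a3, an arginine transporter, fell from 15.0 and 14.4 to 1.97 and 1.58 CPM. Of 21 ABC transporters, 7 rose, 9 fell and 5 were not called, with a median log2 of -0.41. Abcc5 (1.73 ± 0.08) and Abcg2 (1.31 ± 0.09), exporters of drugs and nucleotides, rose, and Abcb1a, P-glycoprotein, fell from 55.1 and 65.1 to 9.94 and 13.1 CPM (log2 -2.38 ± 0.16, adjusted p = 7.03e-05).

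Of 39 endocytosis and vesicle uptake genes, 13 rose, 12 fell and 14 were not called, with a median log2 of 0.15. Over all genes tested, 25.1% rose and 24.6% fell. Mertk, a receptor for the uptake of dying cells, stood at 74.0 and 63.3 CPM with vehicle and 578 and 508 CPM with TEV (log2 2.98 ± 0.11, adjusted p = 9.13e-06). Cav1, caveolin 1, stood at 309 and 302 CPM with vehicle and 714 and 895 CPM with TEV (log2 1.40 ± 0.11, adjusted p = 0.000147). Ehd4 rose from 199 and 218 to 754 and 702 CPM and Stab1, a scavenger receptor, from 1417 and 1282 to 2002 and 1898 CPM. Lrp1, a large scavenger receptor, stood at 1542 and 1378 CPM with vehicle and 25.1 and 22.3 CPM with TEV (log2 -5.95 ± 0.32, adjusted p = 2.96e-05), Cd44, the hyaluronan receptor, at 672 and 737 CPM with vehicle and 127 and 136 CPM with TEV (log2 -2.42 ± 0.10, adjusted p = 1.20e-05), and Axl, a relative of Mertk, at 941 and 858 CPM with vehicle and 459.8 and 483 CPM with TEV. Mertk and Axl thus moved in opposite directions. Tspan11 fell from 22.7 and 27.1 to 0.0278 and 0.0382 CPM. Of 32 lysosome and autophagy genes, 7 rose, 14 fell and 11 were not called, with a median log2 of -0.04. Ctsh (1.68 ± 0.11), Neu1 (1.20 ± 0.15), the factor Tfe3 (1.02 ± 0.15) and Grn (0.73 ± 0.11) rose, and the proteases Ctsb (from 1499 and 1515 to 613 and 605 CPM), Ctsl (from 913 and 1009.7 to 546 and 551 CPM) and Ctsk (from 40.8 and 38.2 to 4.50 and 4.12 CPM) and the hydrolase Hexa (-1.04 ± 0.07) fell.

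Of 36 transcription factors of endothelium, 9 rose, 19 fell and 8 were not called, with a median log2 of -0.50. Gata2, which maintains endothelial genes, stood at 23.9 and 24.6 CPM with vehicle and 129 and 119 CPM with TEV (log2 2.36 ± 0.10, adjusted p = 1.43e-05), Meis2 at 75.3 and 58.7 CPM with vehicle and 171 and 190.2 CPM with TEV and Hhex at 9.31 and 9.16 CPM with vehicle and 15.2 and 18.9 CPM with TEV. Meis1, the close relative of Meis2, fell from 29.7 and 25.6 to 2.47 and 2.56 CPM (log2 -3.46 ± 0.16, adjusted p = 1.75e-05). The lung factors Foxf1 (from 33.0 and 44.8 to 1.5 and 1.54 CPM), Tbx3 (from 47.6 and 60.1 to 1.05 and 1.96 CPM) and Tbx2 (from 7.41 and 5.50 to 1.14 and 0.662 CPM) fell too, as did Bcl6b (-1.36 ± 0.17), Lmo2 (-1.05 ± 0.11) and Klf9 (-1.97 ± 0.14). Of 22 mesenchymal transition factors, 3 rose, 16 fell and 3 were not called, with a median log2 of -2.87. Gata4 rose from 8.13 and 6.48 to 36.7 and 37.5 CPM and Meox2 from 0.372 and 0.383 to 8.19 and 3.69 CPM, and Twist1 (-3.39 ± 0.18), Twist2 (-5.09 ± 0.29), Tbx4 (-5.37 ± 0.23), Snai1 (-1.22 ± 0.18) and Zeb2 (-1.09 ± 0.17) fell. Of 18 circadian clock genes, 4 rose, 3 fell and 11 were not called, with a median log2 of 0.04 (-0.08 with library size alone, -0.05 without vehicle replicate 2). Per1 (0.81 ± 0.12), Clock (0.68 ± 0.12) and Tef (0.63 ± 0.12) rose and Nfil3 (-1.30 ± 0.14), Bhlhe40 (-1.57 ± 0.20) and Cry2 (-0.61 ± 0.10) fell.

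The Hox genes, which record position along the body, split by genomic cluster. Over 22 genes, 8 rose, 7 fell and 7 were not called, with a median log2 of -0.07; 5 rose without vehicle replicate 2 or TEV replicate 2. In the Hoxb cluster, 7 of 8 were lower and none higher (median log2 -1.25), and in the Hoxd cluster all 5 were higher (median 2.10), while of 9 Hoxa genes 3 were higher and none lower. Hoxb9 fell from 9.03 and 7.70 to 0.444 and 0.433 CPM (log2 -4.25 ± 0.29, adjusted p = 6.94e-05), and Hoxb3 from 27.3 and 23.4 to 4.28 and 7.4 CPM. Hoxb5 fell from 14.0 and 12.2 to 4.30 and 4.10 CPM and Hoxb4 from 23.5 and 21.9 to 15.7 and 14.9 CPM. Hoxd8 rose from 8.69 and 10.9 to 45.7 and 37.9 CPM (log2 2.10 ± 0.15, adjusted p = 8.91e-05), and Hoxd9 from 4.67 and 3.62 to 20.9 and 17.1 CPM. Hoxd10 rose from 1.42 and 2.68 to 13.2 and 11.1 CPM, and Hoxa7 from 4.25 and 3.27 to 9.83 and 9.52 CPM. Genes of a cluster share regulatory DNA and are not independent.

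**Figure D4:**
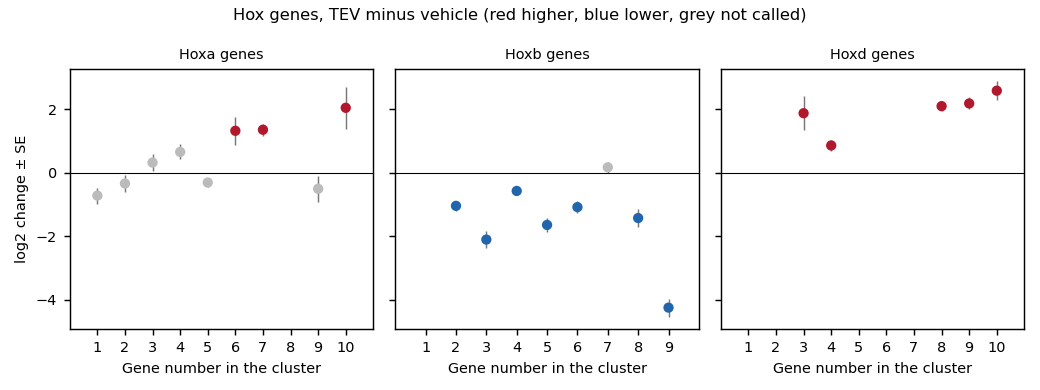
Log2 change with TEV ± SE (vertical axis) for each tested Hox gene by its number in the cluster (horizontal axis), 1 panel for each cluster. All Hoxd genes lie above 0 and 7 of 8 Hoxb genes are called lower.

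Few genes of the cytosolic ribosome were called. Of 28 cytosolic ribosomal protein genes, 2 rose, 5 fell and 21 were not called, with a median log2 of -0.03 (0.02 without TEV replicate 1), with 1 higher and 2 or 3 lower when any library was left out. Rps23 fell from 44.8 and 46.1 to 23.0 and 26.1 CPM. Of 25 ribosome biogenesis genes, 9 rose, 1 fell and 15 were not called, with a median log2 of 0.11 (-0.02 with library size alone), and 5 rose and none fell without vehicle replicate 1; Bop1 (0.76 ± 0.10) and Polr1a (0.67 ± 0.13), the large subunit of RNA polymerase I, rose. The plot of calls by list sets these beside the other lists with at least 10 tested genes.

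**Figure D5:**
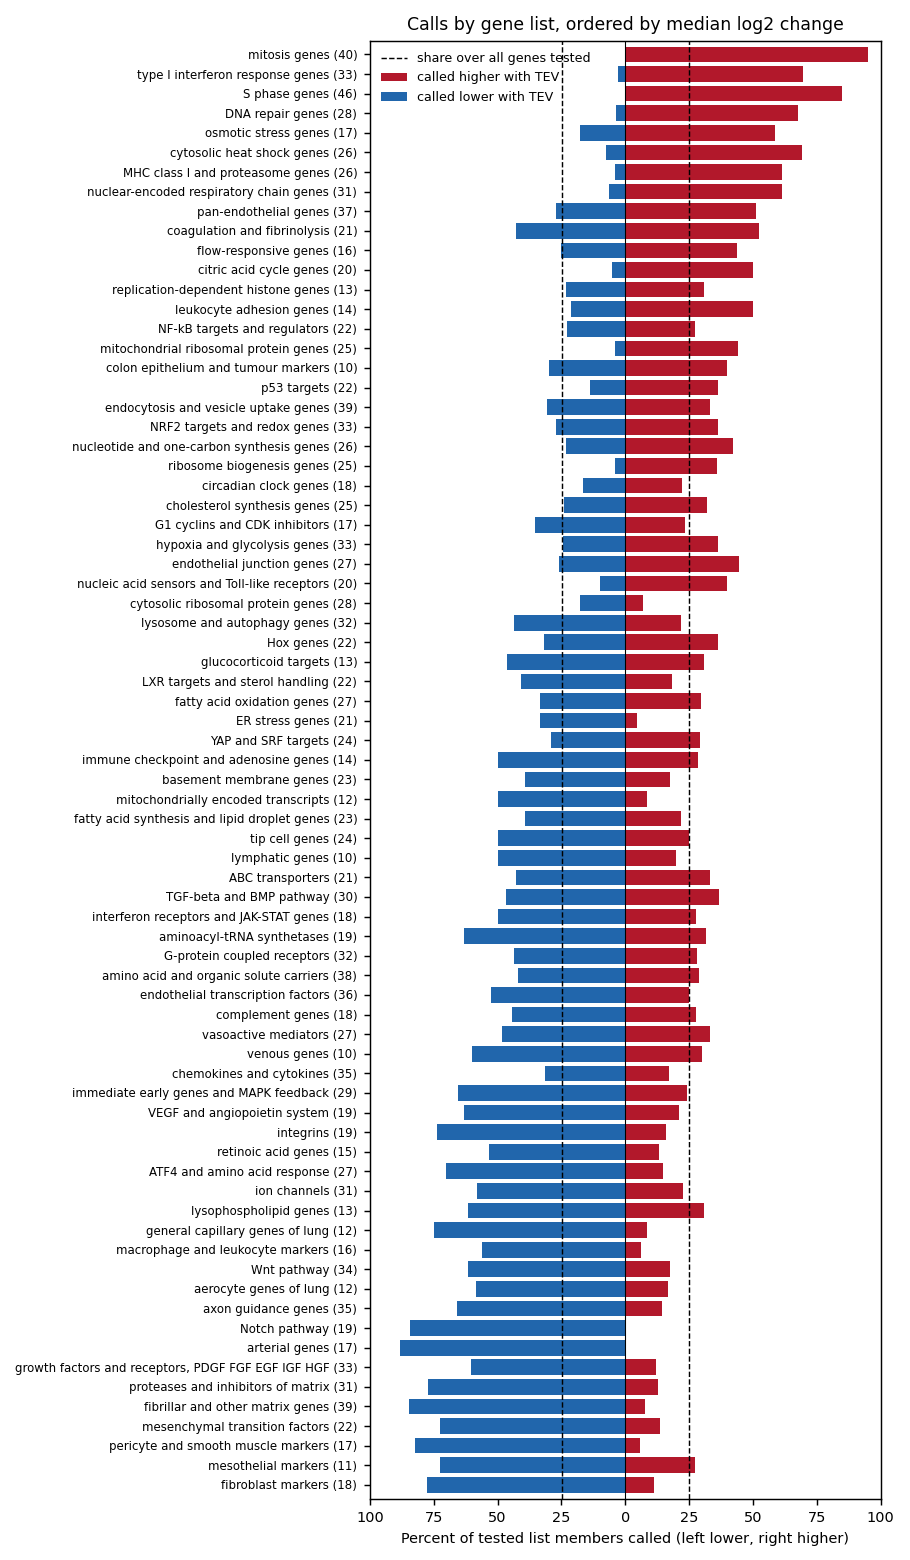
Percent of tested members called higher (red, right) or lower (blue, left) with TEV in each list with at least 10 tested genes (their number in brackets), ordered by median log2 change; dashed lines mark 25.1% and 24.6%, the shares over all 15035 genes. Mitosis, interferon and S phase lists stand at the top, and fibroblast, mesothelial, pericyte, mesenchymal factor and matrix lists at the bottom.

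Some genes were counted in only 1 group. Of 59 tested genes with no count in either vehicle library, 40 were called, and of 90 with none in either TEV library, 78 were. Over all genes tested, 49.7% were called. A gene empty in 1 group passed the filter only through its counts in the other groups, so these numbers of calls are partly set by the filter. After Grik1 and 2310030G06Rik, the genes of the TEV group alone included Ntf3, neurotrophin 3 (5.05 and 6.90 CPM, at least 151-fold higher), Fry (at least 64.3-fold) and Parp8 (at least 32.8-fold). Gm8094, Morn2, Rtp4, Nrbp2 and Zfp784 were called too, and Slc27a1 was called but not without TEV replicate 1 (adjusted p = 0.0767) or TEV replicate 2 (adjusted p = 0.0717). Gm4617, Tacc2 and Gnb5 had no count with vehicle and were not called. In the vehicle group alone, after Cspg4 and Pgam1-ps2, the fullest were Rce1, a prenyl protease (at least 262-fold lower with TEV), Mcpt1, a mast cell protease (at least 181-fold), Slitrk6 (at least 180.4-fold) and Barx1, a homeobox factor (at least 166-fold). Gm9747, Prr33, Slc5a7, Apba2, Serpinb9g, Bhlhe22, Klf15 and Ccl21a (at least 92.6-fold), a chemokine of lymphatic vessels, were called as well, and Zfp799 was not. The bounds take 3 counts over the empty group and cover counting error only.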

How the data were processed

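RNA was extracted with Trizol, made into TruSeq mRNA libraries and read as single ends of 75 bases, per the labels' protocols. The authors deposited estimated counts per gene symbol from kallisto 0.45.0, with R 4.0.0, edgeR and limma also named, per the submitters' processing notes. Those notes name a human genome build although the symbols are mouse, and no source used here gives the strand setting. A second deposited table held the same estimated counts for 13098 of these genes and was used for that check only.

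Estimated counts were rounded, filtered with filterByExpr, scaled by TMM and fitted with edgeR 4.0.16's quasi-likelihood test (R 4.3.3, limma 3.58.1, DESeq2 1.42.0) to all 6 libraries in 3 groups, which left 3 residual degrees of freedom. The contrast was TEV minus vehicle, called at a Benjamini-Hochberg adjusted p under 0.05 over 15035 genes. Genes with no count in a group are given against a floor of 3 counts over that group, and those with 1 to 3 counts by a ratio with its exact 95% interval, both covering counting error only. In simulated counts for 14662 genes of this comparison, 85 of 100 changes of 1 log2 unit and 100 of 100 of 2 units were recovered, with 13 false calls. The changed genes had a mean of 5 CPM or more and were split evenly between rises and falls. All other genes were equal between groups, whereas 49.7% of genes were called in the data. The false calls therefore give no error rate for these data.

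Named were the 20 largest rises and 20 largest falls among called genes with a mean of 5 CPM or more, the 15 largest gains and losses of CPM, the 15 most counted genes of each group, the 15 fullest genes counted in 1 group alone, Ch25h, and members of 76 gene lists. The lists and this rule were chosen with earlier results of these data known. Some genes that the rule names are not reported here. Alternatives were other scalings, filters and tools, the 4 libraries alone, a threshold on fold, a replicate block, equal depth and leaving out each library.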

Additional observations from a re-analysis of the deposited data

How the results depend on the processing

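The count of 3773 genes higher and 3703 lower with TEV stayed within 1.5 times of those values under every alternative but a test against a 1.5-fold change (glmTreat), which by its construction called 1449 higher and 2018 lower. Leaving out a library gave 2668 to 3349 higher and 2713 to 3219 lower. DESeq2 gave 3732 and 3775, limma-voom 3900 and 3938, the 4 libraries alone 3569 and 3873, and library size alone 2968 and 4497. No called gene was called in the other direction under any alternative.

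Deviations of libraries with the same number in the titles correlated at 0.0164 between vehicle and TEV. The value was -0.0665 between vehicle and TEV_reserpine and -0.0771 between TEV and TEV_reserpine. With 2 libraries a group, these values cannot show whether same-numbered libraries shared a mouse or culture. The main fit used no pairing. The table's headers number the TEV libraries 2 and 3, so that only number 2 is shared with vehicle. A block with those numbers was not fitted, and pairing by them was not tested. With a replicate block by the numbers in the titles the counts were 3438 higher and 3426 lower.

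Of 519 genes named, 504 were called, and none of these changed direction. Among uncalled genes, the log2 change of Eef1a1 was -0.04 with library size alone, of opposite sign to the reported value, and that of Vim ran from -0.15 to 0.09 when a library was left out, with the upper end, without TEV replicate 1, of opposite sign to the reported value. The cause was not tested. Genes emptied in 1 group by leaving out a library have no value there. The test against a 1.5-fold change ended the call of 88 named genes. DESeq2 also ended those of Rarb, Ndst2, Slc27a1 and Ptgs2. With library size alone, counts of 12 lists moved by over 1.5 times. The higher count of respiratory chain genes became 11, of mitochondrial ribosomal protein genes 6, of citric acid cycle genes 7 with 5 lower, of TGF-beta genes 7, of ribosome biogenesis genes 5 with 3 lower, of leukocyte adhesion genes 4, of complement genes 3, of interferon receptor and JAK-STAT genes 3, of G1 genes 2 and of glucocorticoid targets 2. The lower count of YAP and SRF targets became 13 and of lymphatic genes 8. By DESeq2 11 YAP and SRF targets and 3 citric acid cycle genes were lower. The replicate block left 5 Hox genes higher and 1 p53 target lower, and thinning to equal depth left 5 Hox genes and 3 complement genes higher. The 5 blood cell and platelet markers kept 1 lower call by DESeq2, with the block, with thinning or with a filter at 1 CPM that left 3 of them. List medians also changed sign with the 4 libraries alone (flow-responsive genes -0.14), by limma-voom (chemokines and cytokines 0.06) and with a filter at 1 CPM (flow-responsive genes -0.12, nucleic acid sensors 0.34, blood cell and platelet markers 0.32, fatty acid oxidation genes 0.01). Medians reported between -0.02 and 0.02 (G1, cholesterol synthesis, junction, hypoxia and glycolysis genes and nucleic acid sensors) changed sign with the 4 libraries alone or with thinning too, to between -0.03 and 0.07. Libraries held 27528493 to 81225627 estimated counts, and 28.1% of genes under 1 CPM were called against 60.8% of those at 100 CPM or more.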

Other observations

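Gene families taken by symbol alone, beside the lists described above, gave further counts, none of them tested as sets. Of 28 cadherins and protocadherins, adhesion molecules of cell contacts, 3 were higher and 18 lower, with a median log2 of -1.98. Of 9 subunits of the chaperonin that folds actin and tubulin, 5 were higher and none lower. Of 10 Eph receptors 3 were higher and 7 lower, and of 8 of their ephrin ligands 2 were higher and 4 lower. Kinesins, motors of microtubules, split evenly, with 10 of 34 higher and 10 lower. Of 21 dual-specificity phosphatases 4 were higher and 12 lower, and of 11 ADAMTS proteases none was higher and 7 were lower. Over all genes tested, 25.1% were higher and 24.6% lower.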
